A study of Mus musculus with 9 samples.

Results

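Homeostatic microglia genes are the transcripts by which resting microglia, the resident macrophages of the brain, are usually recognised in bulk tissue. 9 of them were followed by symbol in the midbrain of mice lacking DJ-1, out of 26602 genes with a count in any library. The genes were P2ry12, Cx3cr1, Csf1r, Itgam, Tmem119, Aif1, C1qa, C1qb and C1qc. All 9 were counted in every library and passed the filter of at least 10 counts over the 9 libraries, as did 18127 genes in all.

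RNA came from midbrain tissue that contained the substantia nigra, from 4 DJ-1+/+ mice (labelled WT) and 5 DJ-1-/- mice (labelled DJ-1 KO), with 1 library per mouse. DJ-1 is the protein encoded by Park7, and its loss in humans causes recessive early-onset Parkinson's disease. The mice were 3 to 4 months old, untreated, on a C57BL/6 background and bred as littermates from heterozygous parents, and the null allele was present in all cells of the body. The libraries count the 3′ ends of polyadenylated transcripts with molecular barcodes (UMIs, random tags by which amplified copies of 1 molecule are collapsed to 1 count). Levels are given as cpm, a gene's UMI count divided by the total of its library and multiplied by 1000000.

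Microglia enter the brain from the yolk sac early in development and renew themselves in place, and their survival depends on signalling through the receptor encoded by Csf1r. They sense ATP and ADP released nearby through P2ry12, and receive the neuronal chemokine fractalkine through Cx3cr1. They are also the main source in brain of C1q, the protein that starts the classical complement cascade and tags synapses and debris for removal. In injury and ageing, microglia typically lower P2ry12 and Tmem119 and raise phagocytic and lysosomal genes. P2ry12 and Tmem119 set microglia apart from most other macrophages, whereas Csf1r, Itgam, Aif1 and the C1q genes are shared with macrophages of the meninges and vessels.

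Totals were 841974 to 886085 UMI counts in DJ-1+/+ and 967751 to 1098125 in DJ-1-/- libraries, so every knockout library was the deeper one. Gm42418, the highest gene of every library, made up only 0.107 to 0.142% of its counts. Whether counts flatten off at high levels was not tested. Levels, fold changes and counting errors given here take each count as a separate molecule. Park7 was at 119 to 157 cpm in DJ-1+/+ and 14.4 to 26.4 cpm in DJ-1-/- mice. Its log2 fold change was -2.71 (SE 0.15, adjusted p = 7.39e-08 by edgeR's quasi-likelihood test), and 15.1% of its level was left. The labels give no sex. Xist was at 0 to 2 counts in 3 libraries (DJ-1+/+ replicates 1 and 4, and replicate 5 of DJ-1-/-), in which the Y-linked gene Ddx3y had 113 to 152 counts. Marker lists of tissue next to the midbrain also differed between libraries. The summed choroid plexus markers reached 943 cpm in DJ-1+/+ replicate 4, against 168 to 411 cpm elsewhere. The summed cerebellar neuron markers reached 1251 cpm in DJ-1+/+ replicate 1, against 347 to 599 cpm elsewhere. Sex and depth were varied in the alternatives given at the end, and the part of dissection in the values that follow was not tested.

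For 6 of the 9 genes a promoter window from 250 bases before to 50 bases after the transcription start was at hand (RefSeq, GRCm38.p6). Those of C1qb, C1qc and Itgam are printed, because C1qb and C1qc are neighbours whose transcripts serve 1 protein and because Itgam and C1qc varied most between mice. Capitals mark the purine-rich core GAGGAA on either strand (TTCCTC on the other), which is known as the centre of sites for PU.1, the myeloid transcription factor encoded by Spi1. The windows lie at chr4:136886151-136886450 (C1qb, minus strand), chr4:136892865-136893164 (C1qc, minus strand) and chr7:128062390-128062689 (Itgam, plus strand), each written in the direction of transcription.
C1qb: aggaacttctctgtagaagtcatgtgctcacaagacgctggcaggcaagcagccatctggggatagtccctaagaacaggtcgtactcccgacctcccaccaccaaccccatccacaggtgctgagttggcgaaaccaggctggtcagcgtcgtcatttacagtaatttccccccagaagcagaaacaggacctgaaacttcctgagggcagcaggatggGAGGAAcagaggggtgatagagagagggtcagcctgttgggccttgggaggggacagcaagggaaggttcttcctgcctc
C1qc: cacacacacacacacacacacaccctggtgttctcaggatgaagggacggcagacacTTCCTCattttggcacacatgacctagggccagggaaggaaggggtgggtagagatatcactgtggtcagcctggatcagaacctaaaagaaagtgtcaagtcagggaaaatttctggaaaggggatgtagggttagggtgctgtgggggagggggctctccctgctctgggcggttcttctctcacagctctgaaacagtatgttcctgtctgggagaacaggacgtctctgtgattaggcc
Itgam: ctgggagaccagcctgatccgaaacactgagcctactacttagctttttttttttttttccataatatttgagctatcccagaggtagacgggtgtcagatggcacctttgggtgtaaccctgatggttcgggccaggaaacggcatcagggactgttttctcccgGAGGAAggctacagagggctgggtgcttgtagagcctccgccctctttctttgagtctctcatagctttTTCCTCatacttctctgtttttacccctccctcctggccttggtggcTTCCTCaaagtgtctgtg
The core occurred once in the C1qb window, starting at -30 from the transcription start, and once in the C1qc window, at -193. It occurred 3 times in the Itgam window, at -84, -15 and 33. Aif1 had it once, at -7, and P2ry12 and Cx3cr1 had no match, so 4 of 6 windows held it. Of 32851 mouse windows of the same length, 28.3% held at least 1 match. A match describes the letters of the window and no binding was measured.

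Across the 9 mice the summed level of the 9 genes hardly moved. The sums were 559, 602, 585 and 596 cpm in DJ-1+/+ mice and 594, 634, 620, 553 and 579 cpm in DJ-1-/- mice. The means were 586 ± 18.9 cpm (SD, n = 4) against 596 ± 32.3 cpm (SD, n = 5), a log2 ratio of 0.02, and the lowest and highest sums were both from DJ-1-/- mice. Each sum rested on 471 to 696 UMI counts. If each is an independent molecule, counting alone gives an SD of 23.7 to 26.2 cpm. The SD over the 9 libraries was 26.1 cpm (4.42% of the mean), about as large as counting error. In whole tissue, fewer microglia and less of these transcripts per microglial cell cannot be told apart.

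None of the 9 genes passed the test for genotype. With edgeR's quasi-likelihood test and Benjamini-Hochberg adjustment over all 18127 genes, 0 of 9 had an adjusted p under 0.05, and 0 of 9 had an unadjusted p under 0.05. Among all genes tested, 0.00552% passed at the adjusted p (Park7 alone) and 2.83% at the unadjusted p, of which 1.57% lay higher in DJ-1-/- mice and 1.26% lay lower. Every adjusted p of the 9 was 1, and with DESeq2 also 0 passed. The 2 genotypes overlapped for all 9 genes, while 1.25% of genes tested did not overlap in cpm. The log2 fold changes ran from -0.14 to 0.32 with a median of 0.04, 6 above 0 and 3 below. The median over all genes tested was 0.01, with 51.9% above 0. Among the 9553 genes of similar count (a mean of 20 to 140 per library), the median was 0.00 and the SD of the log2 fold changes 0.16.

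**Figure D1:**
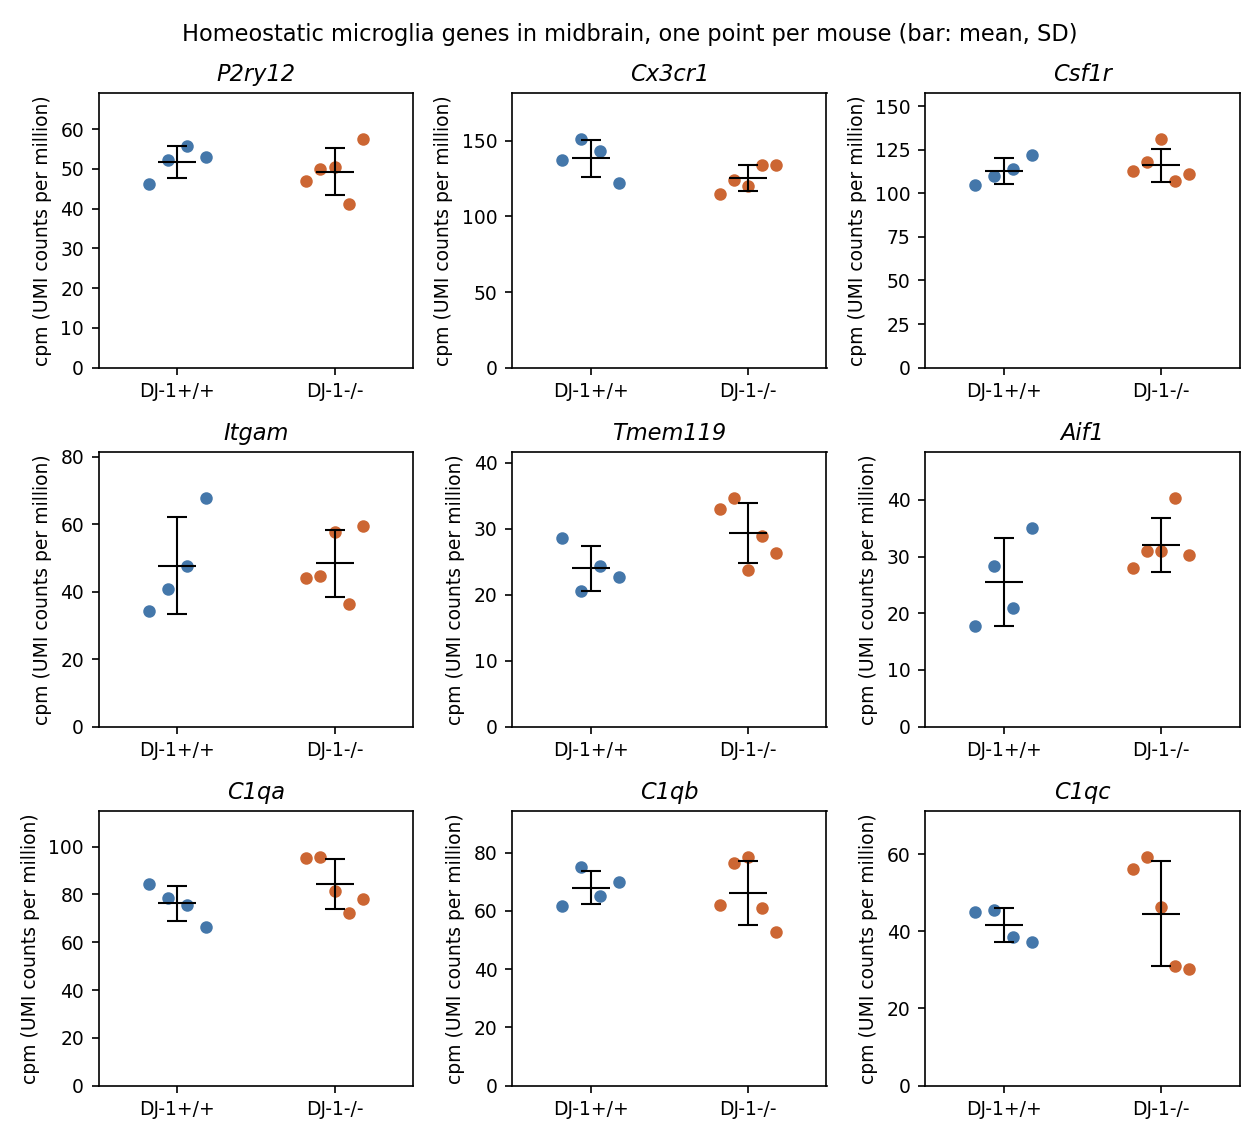
Levels in cpm (vertical axes, each from 0) of the 9 homeostatic microglia genes in DJ-1+/+ (blue, n = 4) and DJ-1-/- midbrain (orange, n = 5), 1 point per mouse, with mean and SD in black. The genotypes overlap in every panel, and the widest spreads relative to the mean are those of Itgam and Aif1 in DJ-1+/+ and C1qc in DJ-1-/- mice.

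Of the surface receptors, P2ry12 encodes the purinergic receptor that steers microglial processes toward injured cells (GRCm38, chr3:59216272-59262871, minus strand). It was at 46.3, 52.3, 55.8 and 53.0 cpm in DJ-1+/+ mice and at 47.0, 50.1, 50.5, 41.3 and 57.5 cpm in DJ-1-/- mice. Both the lowest and the highest mouse were DJ-1-/-, and the log2 fold change was -0.07 (SE 0.14, unadjusted p = 0.613, adjusted p = 1 by edgeR, 95% interval of the fold 0.78 to 1.17). Of the exons of P2ry12, 9 of 2546 bases overlap those of Med12l on the opposite strand, which had 624 counts over the 9 libraries.

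Cx3cr1, the fractalkine receptor (chr9:119901616-120069879, minus strand), had the highest level of the 9. Its annotated span runs over several other genes. Only Gm33858, on the opposite strand and with 3 counts over the 9 libraries, shares exon bases with it (78 of 4505). Cx3cr1 was at 137, 151, 143 and 122 cpm in DJ-1+/+ mice and at 115, 124, 120, 134 and 134 cpm in DJ-1-/- mice. 3 of 4 DJ-1+/+ mice lay above all DJ-1-/- mice, and DJ-1+/+ replicate 4 lay among them. The means were 138 ± 12.4 cpm (SD, n = 4) and 125 ± 8.46 cpm (SD, n = 5), a difference that did not pass the test. The log2 fold change was -0.14 (SE 0.08, unadjusted p = 0.108, adjusted p = 1 by edgeR), with a fold between 0.80 and 1.02 at 95%. It was below 0 under every alternative, from -0.26 to -0.10. The value nearest to a call was that of the 6 libraries with Xist (unadjusted p = 0.0265 by edgeR). These are DJ-1-/- replicates 1 to 4 and only DJ-1+/+ replicates 2 and 3, the highest mice for Cx3cr1. The smallest adjusted p under any alternative was 0.86. Fractalkine itself, encoded by the neuronal gene Cx3cl1, was at 133 ± 16.0 cpm in DJ-1+/+ (SD, n = 4) against 125 ± 11.3 cpm in DJ-1-/- mice (SD, n = 5), with a log2 fold change of -0.09 (SE 0.10, unadjusted p = 0.367, adjusted p = 1 by edgeR).

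Csf1r, the receptor for the growth factors CSF1 and IL-34 (chr18:61100598-61132149, plus strand), had the smallest SD relative to its mean of the 9. Its levels were 105, 110, 114 and 122 cpm in DJ-1+/+ mice and 113, 118, 131, 107 and 111 cpm in DJ-1-/- mice. The ranges lay almost on top of each other, with a log2 fold change of 0.04 (SE 0.09, unadjusted p = 0.645, adjusted p = 1 by edgeR) and a fold between 0.90 and 1.18 at 95%. Of its exons, 873 of 5774 bases overlap those of Hmgxb3 on the opposite strand, which had 381 counts over the 9 libraries, and whether counting used strand is not given in the sources used here. The ligand gene Csf1 was at 56.1 ± 10.8 cpm in DJ-1+/+ (SD, n = 4) against 43.2 ± 12.1 cpm in DJ-1-/- mice (SD, n = 5). Its log2 fold change was -0.37 (SE 0.20, unadjusted p = 0.0788, adjusted p = 1 by edgeR). The other ligand gene, Il34, was at 59.0 ± 23.3 cpm (SD, n = 4) against 61.3 ± 8.17 cpm (SD, n = 5), with a log2 fold change of 0.05 (SE 0.20, unadjusted p = 0.796, adjusted p = 1 by edgeR).

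Itgam encodes CD11b, the alpha chain of complement receptor 3 (chr7:128062640-128118491, plus strand), and its promoter is printed above. It was at 34.4, 40.9, 47.7 and 67.7 cpm in DJ-1+/+ mice and at 44.0, 44.6, 57.8, 36.2 and 59.4 cpm in DJ-1-/- mice. The lowest and the highest value were both from DJ-1+/+ mice, replicates 1 and 4. The log2 fold change was 0.02 (SE 0.20, unadjusted p = 0.928, adjusted p = 1 by edgeR, fold 0.75 to 1.37 at 95%), and it was 0.24 without DJ-1+/+ replicate 4 and -0.11 without DJ-1+/+ replicate 1. The partner chain CD18, encoded by Itgb2, was at 12.7 ± 0.862 cpm (SD, n = 4) against 11.3 ± 3.61 cpm (SD, n = 5), with a log2 fold change of -0.15 (SE 0.30, unadjusted p = 0.612, adjusted p = 1 by edgeR). On the same strand, 3450 of the 5024 exon bases of Itgam are shared with the annotated gene Gm49368, which had 0 counts. How reads that fall on both genes were assigned was not examined, so the level of Itgam may be affected.

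Tmem119 encodes a membrane protein used to tell microglia from infiltrating macrophages (chr5:113793729-113800516, minus strand), and it was the lowest of the 9. It was at 28.5, 20.5, 24.4 and 22.6 cpm in DJ-1+/+ mice and at 33.0, 34.6, 23.7, 28.9 and 26.3 cpm in DJ-1-/- mice, from 18 to 38 counts. 3 DJ-1-/- mice lay above all DJ-1+/+ mice and the other two lay within their range. The log2 fold change was 0.29 (SE 0.20, unadjusted p = 0.158, adjusted p = 1 by edgeR), with a fold between 0.92 and 1.64 at 95%, and it stayed between 0.22 and 0.42 under every alternative.

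Aif1 encodes IBA1, the calcium-binding protein stained in most histology of microglia (chr17:35170991-35176068, minus strand). It was at 17.8, 28.4, 20.9 and 35.0 cpm in DJ-1+/+ mice and at 28.0, 31.0, 30.9, 40.3 and 30.2 cpm in DJ-1-/- mice. DJ-1+/+ replicates 1 and 3 lay below all DJ-1-/- mice, and DJ-1+/+ replicate 4 lay above 4 of the 5. The log2 fold change was 0.32 (SE 0.22, unadjusted p = 0.155, adjusted p = 1 by edgeR, fold 0.91 to 1.72 at 95%), the largest of the 9 and short of the threshold. Without DJ-1+/+ replicate 4, the library with the highest choroid plexus sum, it was 0.51 (unadjusted p = 0.039 by edgeR), and without DJ-1+/+ replicate 1 it was 0.19.

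**Figure D2:**
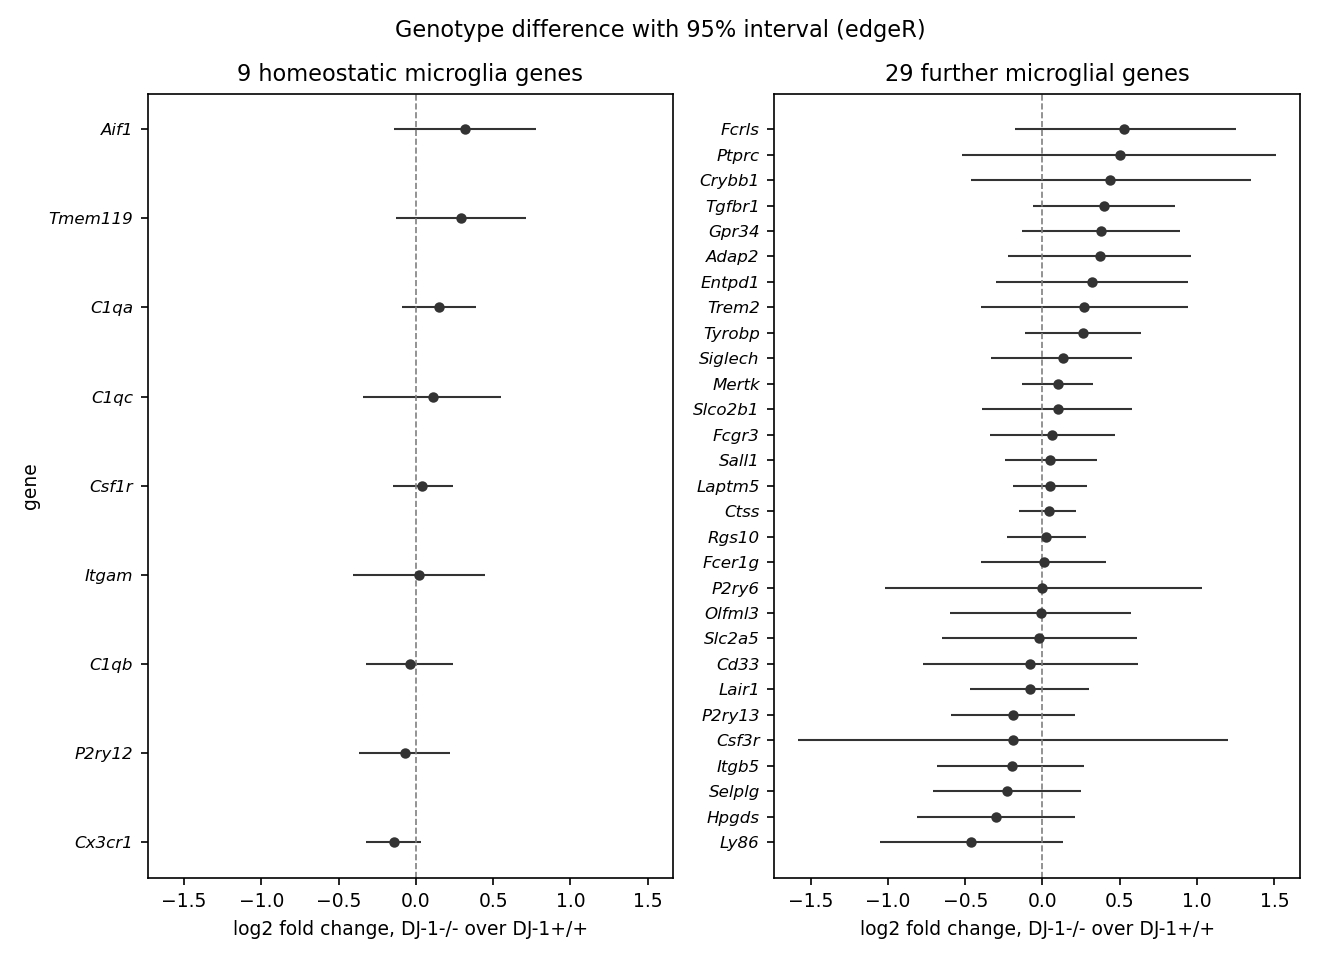
Log2 fold changes, DJ-1-/- over DJ-1+/+ (horizontal axes), with 95% intervals from edgeR for the 9 homeostatic microglia genes (left) and 29 of the 30 further microglial genes (right), each ordered by its value. All intervals include 0, and the narrowest on the left are those of Cx3cr1 and Csf1r, the genes with the highest counts.

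C1qa, C1qb and C1qc encode the A, B and C chains that assemble into C1q, and lie side by side on the minus strand of chromosome 4, 14 Mb from Park7 (chr4:136895917-136898803, chr4:136880129-136886187 and chr4:136889804-136893065). C1qa was at 84.3, 78.4, 75.6 and 66.6 cpm in DJ-1+/+ mice and at 95.1, 95.6, 81.5, 72.3 and 78.0 cpm in DJ-1-/- mice. DJ-1-/- replicates 1 and 2 were the highest of all and the other three lay within the DJ-1+/+ range. Its log2 fold change was 0.15 (SE 0.11, unadjusted p = 0.199, adjusted p = 1 by edgeR, fold 0.94 to 1.31 at 95%).

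C1qb was at 61.8, 75, 65.2 and 70.0 cpm in DJ-1+/+ mice and at 62.1, 76.5, 78.4, 61.0 and 52.6 cpm in DJ-1-/- mice. The DJ-1-/- values reached beyond the DJ-1+/+ values on both sides, and the log2 fold change was -0.04 (SE 0.13, unadjusted p = 0.762, adjusted p = 1 by edgeR, fold 0.80 to 1.18 at 95%). C1qc was at 45.1, 45.5, 38.4 and 37.2 cpm in DJ-1+/+ mice and at 56.1, 59.2, 46.4, 31.0 and 30.2 cpm in DJ-1-/- mice. Its DJ-1-/- mice split around the DJ-1+/+ range, 3 above it and 2 below, with a log2 fold change of 0.11 (SE 0.21, unadjusted p = 0.620, adjusted p = 1 by edgeR, fold 0.79 to 1.46 at 95%).

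The 3 C1q genes together made up 186 ± 11.4 cpm in DJ-1+/+ (SD, n = 4) against 195 ± 31.2 cpm in DJ-1-/- mice (SD, n = 5), from 161 to 231 cpm. C1qa was above C1qc in all 9 libraries, at a ratio of 1.93 ± 0.324 (SD, n = 9). The ratio was 1.84 ± 0.106 in DJ-1+/+ mice (SD, n = 4) and 2 ± 0.432 in DJ-1-/- mice (SD, n = 5). DJ-1-/- replicates 4 and 5 had the highest ratios, 2.33 and 2.58, against 1.62 to 1.97 in the other libraries. C1qa and C1qc had the highest correlation of the 36 pairs of members over the 9 libraries (Pearson's r = 0.81, Spearman's rho = 0.83, on log2(cpm + 1)), and r was 0.52 without the 2 libraries farthest from the median of C1qa, DJ-1-/- replicates 1 and 2.

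**Figure D3:**
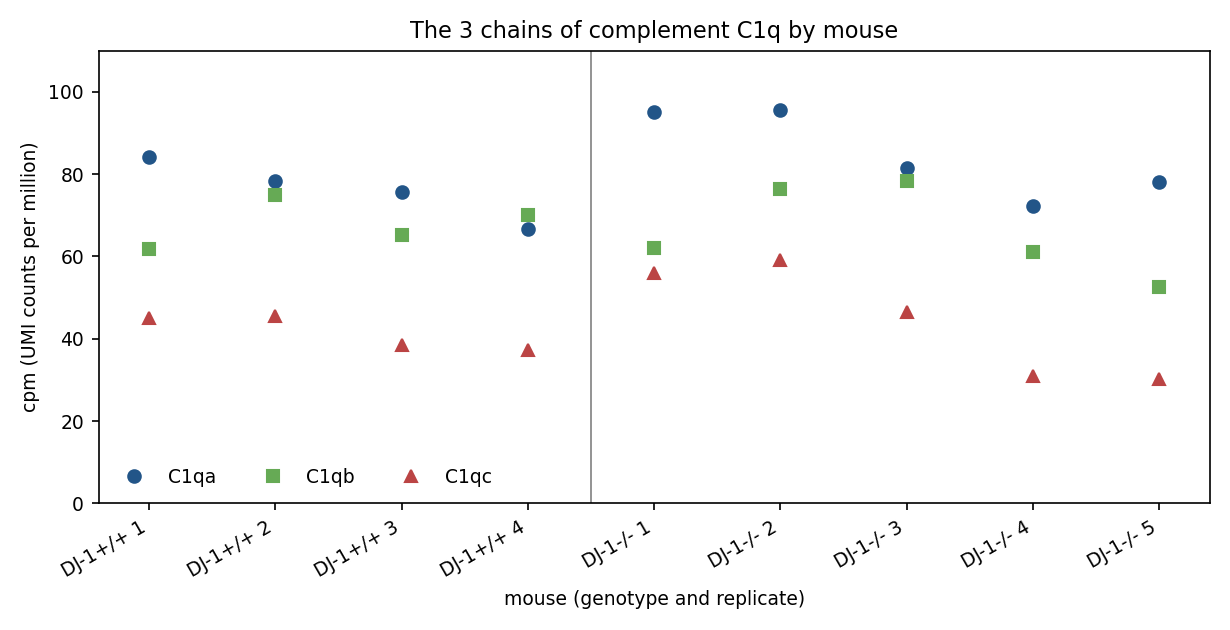
Levels in cpm (vertical axis, from 0) of C1qa (circles), C1qb (squares) and C1qc (triangles) in each mouse, with DJ-1+/+ mice left of the line and DJ-1-/- mice right of it. C1qa lies above C1qc in all 9 mice, and the summed level of the 3 genes spreads more among DJ-1-/- mice (161 to 231 cpm) than among DJ-1+/+ mice (174 to 199 cpm).

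Other pairs moved less together. The median r over the 36 pairs was -0.07, with 19 below 0, and 5 pairs were above 0.6. Besides C1qa with C1qc these were Csf1r with Itgam (0.73), Tmem119 with C1qa (0.71), P2ry12 with Itgam (0.69) and Csf1r with C1qb (0.63). Without the 2 libraries farthest from the median of the gene named first, r was 0.56 for Csf1r with Itgam, 0.20 for Tmem119 with C1qa, 0.53 for P2ry12 with Itgam and 0.44 for Csf1r with C1qb. The value of Tmem119 with C1qa thus rested on DJ-1-/- replicates 1 and 2. The lowest was Cx3cr1 with Csf1r (-0.58, and -0.79 without the 2 farthest libraries). Each pair shares libraries, their depth and their dissection, and 4 of the 9 genes varied within genotype by less than counting error, so these values describe the 9 libraries only.

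How much each gene varied between mice of 1 genotype was compared with counting error. The measure was the chi-square of its counts per degree of freedom, with 7 degrees of freedom. A value of 1 is what counting alone gives if each count is an independent molecule. P2ry12 (0.51), Csf1r (0.58), Tmem119 (0.59) and Cx3cr1 (0.74) were below 1, and C1qa was at 1.01. Aif1 and C1qb were both at 1.25. C1qc (2.59) and Itgam (2.77) stood highest, above 88.0% and 89.4% of the 9553 genes of similar count. The median of those genes was 1.07, their quartiles were 0.68 and 1.73, and 46.1% were below 1.

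**Figure D4:**
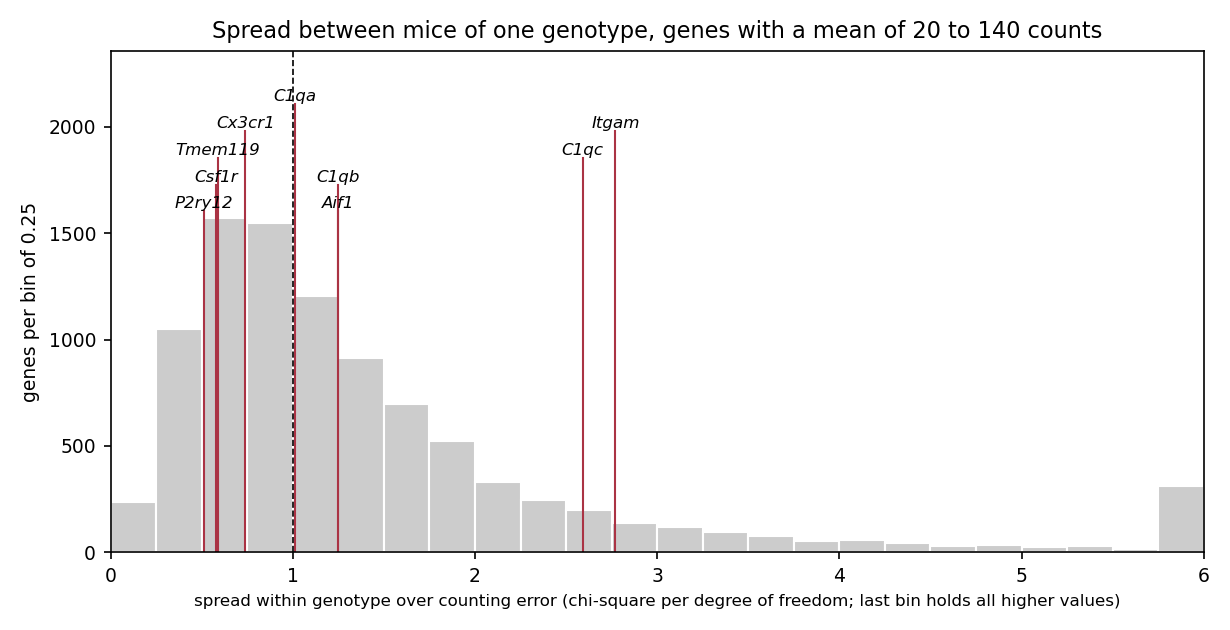
Number of genes (vertical axis) by spread within genotype relative to counting error (horizontal axis, chi-square per degree of freedom) for 9553 genes with a mean of 20 to 140 counts, in grey, with the 9 homeostatic microglia genes as red lines. The dashed line at 1 is counting error alone, and the last bin holds all higher values. Itgam (2.77) and C1qc (2.59) lie apart from the other members, which run from 0.51 to 1.25.

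By mean level over the 9 libraries the order was Cx3cr1 (131 cpm), Csf1r (115 cpm), C1qa (80.8 cpm), C1qb (66.9 cpm), P2ry12 (50.4 cpm), Itgam (48.1 cpm), C1qc (43.2 cpm), Aif1 (29.2 cpm) and Tmem119 (27.0 cpm). Because only the 3′ end of each transcript is counted, these levels were not divided by length. Other differences between genes in how they are counted were not tested, among them the exon bases that Itgam and Csf1r share with other genes. Csf1r was above C1qa in 9 of 9 libraries, by 33.8 ± 12.7 cpm (SD, n = 9). C1qa was above C1qb and C1qb above P2ry12 in 8 of 9 libraries each, by 13.9 ± 12 and 16.5 ± 9.92 cpm. C1qc was above Aif1 in 7 of 9 libraries, by 14.1 ± 13.6 cpm. For the other neighbours the mean difference was smaller than its SD over the 9 libraries, and no test was run. Cx3cr1 exceeded Csf1r by 16.4 ± 17.7 cpm and was the higher in 7 of 9 libraries. P2ry12 exceeded Itgam by 2.35 ± 8.83 cpm (6 of 9). Itgam exceeded C1qc by 4.86 ± 17.0 cpm and Aif1 exceeded Tmem119 by 2.23 ± 8.17 cpm (5 of 9 each).

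The 30 further homeostatic microglia genes all passed the filter, and 0 of them had an unadjusted p under 0.05 (edgeR). 20 were higher and 10 lower, with a median log2 fold change of 0.05. The highest log2 fold change was that of Fcrls, an Fc receptor-like gene of mouse microglia, at 0.53 (SE 0.34, unadjusted p = 0.131, adjusted p = 1 by edgeR). Its counts were 7, 6, 24 and 20 in DJ-1+/+ mice and 25, 30, 24, 18 and 24 in DJ-1-/- mice, so DJ-1+/+ replicates 1 and 2 alone were low. The lowest was Ly86, a partner of the toll-like receptor relative CD180, at -0.46 (SE 0.28, unadjusted p = 0.115, adjusted p = 1 by edgeR). Their summed level ran from 979 to 1250 cpm, with both extremes in DJ-1-/- mice, replicates 4 and 2, which also held the lowest and highest sums of the 9 genes.

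Of 10 myeloid transcription factors, 4 were higher and 6 lower, 0 with an unadjusted p under 0.05 (edgeR), at a median log2 fold change of -0.07. Spi1, which encodes PU.1, was at the top of this list with 0.45 (SE 0.47, unadjusted p = 0.356, adjusted p = 1 by edgeR), from 3 to 5 counts in DJ-1+/+ and 2 to 11 in DJ-1-/- mice. Batf3, a factor of dendritic cells, was at its bottom, with 1 to 4 counts in every library. The highest levels of the list were those of Mef2a and Mef2c, at 138 and 126 cpm over the 9 libraries. In whole tissue the cells from which these counts came cannot be told. Of 13 genes for ligands and partners of the receptors, 12 were tested, 6 were higher and 6 lower, and 0 had an unadjusted p under 0.05. Among them Tgfb1, which encodes a growth factor that maintains the microglial state, had 0 to 5 counts per library, too few to show a difference.

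Of 13 further genes of the classical complement pathway and its regulators, 12 were tested, 10 were higher and 2 lower, and 0 had an unadjusted p under 0.05 (edgeR). Their median log2 fold change was 0.11. The top of the list was C1s1, which encodes a protease of the classical complement cascade, with 0 to 2 counts in DJ-1+/+ and 0 to 5 in DJ-1-/- mice. The bottom was C2, the substrate of that protease, at -0.59 (SE 0.48, unadjusted p = 0.235, adjusted p = 1 by edgeR).

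A list of genes that rise in activated microglia showed no common direction in whole midbrain. Of 17, 15 were tested, 8 were higher and 7 lower (median log2 fold change 0.01), and 1 in each direction had an unadjusted p under 0.05. Ctsb, which encodes the lysosomal protease cathepsin B, was at 190 ± 8.21 cpm in DJ-1+/+ (SD, n = 4) against 217 ± 20.3 cpm in DJ-1-/- mice (SD, n = 5), a log2 fold change of 0.20 (SE 0.08, unadjusted p = 0.0252, adjusted p = 1 by edgeR). Clec7a, the receptor dectin-1, had 11, 6, 3 and 3 counts in DJ-1+/+ and 2, 3, 3, 3 and 0 in DJ-1-/- mice (unadjusted p = 0.0212, adjusted p = 1 by edgeR). At the ends of the list stood Clec7a and Lgals3, which encodes galectin-3 and had 1 to 8 counts per library. Cst7, Itgax and Ch25h had 3 counts or fewer in every library, too few to show a difference. The highest of the list were Apoe and Cd63, at 327 and 209 cpm over the 9 libraries. In whole tissue the cells from which these counts came cannot be told, so the list is no measure of microglia alone.

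**Figure D5:**
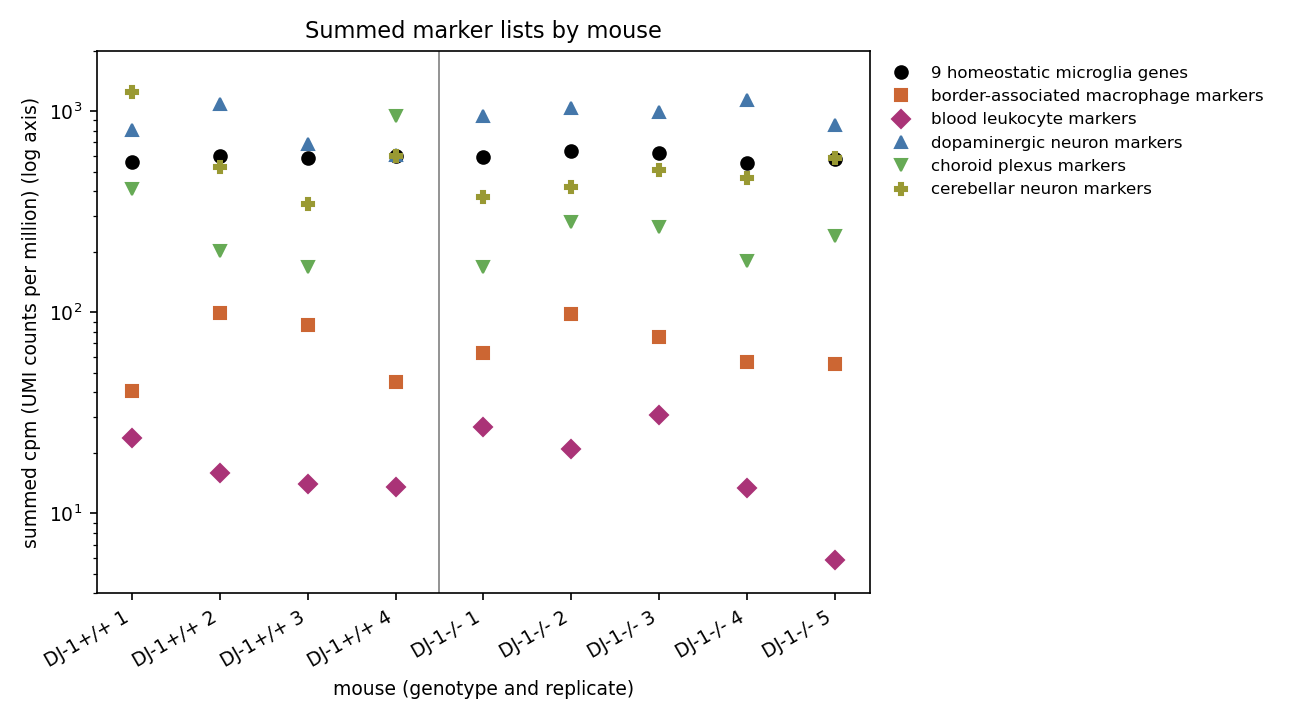
Summed levels in cpm (vertical axis, log scale) of 6 gene lists in each mouse, with DJ-1+/+ mice left of the line and DJ-1-/- mice right of it. The 9 homeostatic microglia genes stay within 553 to 634 cpm, while choroid plexus markers span 168 to 943 cpm and cerebellar neuron markers 347 to 1251 cpm.

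Markers of the other cells that share several of the 9 genes were low. The 10 markers of border-associated macrophages, the macrophages of meninges and vessels, summed to 40.4 to 98.9 cpm in DJ-1+/+ and 55.5 to 98.3 cpm in DJ-1-/- mice. 9 of them were tested, 6 were higher and 3 lower, and 0 had an unadjusted p under 0.05 (edgeR). The mannose receptor gene Mrc1 was at 12.6 ± 6.50 cpm (SD, n = 4) against 13.9 ± 3.87 cpm (SD, n = 5). At the ends of the list, Cd209f had 0 to 9 counts and Cd163 had 0 to 8 counts per library. Blood leukocyte markers summed to 13.5 to 23.8 cpm in DJ-1+/+ and 5.85 to 30.9 cpm in DJ-1-/- mice. Of these 10 genes Cd79a was at 0 in every library, which allows up to 2.73 to 3.56 cpm, and Ly6c2, Plac8, Cd3e, Ms4a1 and Nkg7 had 3 counts or fewer in each. 4 were tested, 2 higher and 2 lower, with 0 at an unadjusted p under 0.05, from Ccr2 at 1 to 8 counts to S100a8 at 0 to 9 counts.

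The remaining lists describe the tissue in which the 9 genes were measured. Lists of neurons (8 genes), astrocytes (9) and oligodendrocytes (9) had median log2 fold changes of 0.01, -0.03 and 0.00, that of endothelial cells (8) was at -0.08, and 0 of their genes had an unadjusted p under 0.05 (edgeR). Of 5 red blood cell genes, 4 were lower, with Hba-a2 at an unadjusted p under 0.05. All 11 dopaminergic neuron markers were higher in DJ-1-/- mice, 5 of them at an unadjusted p under 0.05. All 12 choroid plexus markers were lower, 6 of them at that level, and all 8 cerebellar markers were lower, 4 of them at that level. None of these genes had an adjusted p under 0.05 in the fit reported here. With no filter on low counts 12 of them did, namely 5 choroid plexus, 4 cerebellar and 2 dopaminergic markers and Hba-a2. Over the same libraries the 9 microglial genes kept a log2 ratio of summed levels of 0.02, and it was 0.03 without DJ-1+/+ replicate 4 and 0.00 without DJ-1+/+ replicate 1.

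By Pearson's r over the 9 libraries, on log2(cpm + 1), the genes most like the sum of the 9 were Lrrtm4 (0.92), Ilf2 (0.89), Rnh1 (0.88), Ndufaf7 and Lmo2 (both 0.87), followed by Rpl35a, Rnft2, Erlec1, Diexf and 6330403L08Rik (all 0.86). They were taken from 10761 genes with a mean of at least 20 counts, whose median r was 0.03, and none is on a marker list used here. Of these 10761 genes, 60 had an r over 0.8, and how many would by sampling error alone was not tested. The 18 further microglial genes at that level had r from -0.30 (Ctss) to 0.73 (P2ry13), with a median of 0.42 and 16 above 0. Since the sum varied by about as much as counting error, its order over the 9 libraries is itself uncertain.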

How the data were processed

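Midbrain RNA of 4 DJ-1+/+ and 5 DJ-1-/- mice was analysed, grouped by the sample labels, 1 library per mouse. The authors deposited raw UMI counts per gene and library. The submitters' processing notes name fastp 0.20.0, STAR 2.7.3a, Subread featureCounts 2.0.0, UMI-tools 1.0.0 and GRCm38, and counting by strand and the annotation release are not given in the sources used here. Counts were joined by Ensembl identifier, absent genes were set to 0, and symbols and positions were taken from GENCODE M21 (26576 of 26602 identifiers). All genes whose counts summed to at least 10 were tested with edgeR 4.0.16 (TMM, quasi-likelihood, genotype alone) in R 4.3.3, with Benjamini-Hochberg adjustment. Standard errors were derived from the fold change and its p. Intervals cover the fit, and counting SDs cover counting error only. Libraries of 1 genotype differed beyond sampling noise (chi-square per degree of freedom 1.07 to 2.27 over 16 pairs). The edgeR test was also run on simulated data. At an adjusted p under 0.05 it called 82 of 100 genes changed by a log2 size of 1.0 and 30 of 100 changed by 0.5. Of 17575 unchanged genes it called 9. Many genes were changed at once there, while Park7 alone passed in the data. The adjusted threshold was therefore easier to reach in the simulation, and its counts may overstate what the fit reported here could call.

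Members and lists were chosen with earlier results of these data known. Named are the 9 genes, Park7, Xist and Ddx3y, ligands and partners, and the extremes of the microglial, macrophage and leukocyte lists. Also named are list genes with an unadjusted p under 0.05 and genes that share exon bases with a member. So are the 10 genes most like the summed level. The same rule covers the other lists, of which counts and single genes are given. 1 gene of the wider microglial list is counted there and not reported here by name. Mrc1, P2ry13, Ctss, Gm42418, Cst7, Itgax, Ch25h, Apoe, Cd63, Mef2a and Mef2c were named after their values were seen. Alternatives were DESeq2 1.42.0, other scalings and filters, thinning to 841974 counts, Xist as covariate, libraries with Xist alone, the replicate number as block and each library left out.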

Additional observations from a re-analysis of the deposited data

Results flagged for a closer look

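Of 146 groups of values examined, 12 held a mouse that stood apart from its group by Dixon's test. About 7.3 (1 in 20) would do so by chance if the groups were independent and unselected. Many of the genes were picked from these same data and some sums contain them, so 12 cannot be judged against 7.3. Among the 9 microglial genes, Aif1 stood apart in DJ-1-/- replicate 4. It was at 40.3 cpm there, against 28.0 to 31.0 cpm in the other DJ-1-/- mice. The endothelial markers summed to 622 cpm in DJ-1+/+ replicate 3. Tgfb1 was at 1.19 cpm in DJ-1+/+ replicate 1, a value of 1 count. In DJ-1+/+ replicate 1 the cerebellar genes Gabra6, Pcp2 and Cbln3 stood at 121, 93.8 and 151 cpm. Gabra6 was at 0.911 cpm in DJ-1-/- replicate 2, a value of 1 count against 0 in the other DJ-1-/- mice. The choroid plexus gene Folr1 stood at 35.0 cpm in DJ-1+/+ replicate 4. The dopaminergic genes Slc6a3 and Ret stood at 130 and 118 cpm in DJ-1+/+ replicate 2, and Slc6a3 at 58.1 cpm in DJ-1-/- replicate 1. The haemoglobin gene Hba-a2 was at 62.4 cpm in DJ-1-/- replicate 5.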

How the results depend on the processing

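Under 18 alternative settings, 149 of 162 fold changes of the 9 genes kept their direction, 13 turned it and 0 reached an adjusted p under 0.05 (smallest 0.86). P2ry12, with a log2 fold change of -0.07, was at 0.00 after thinning. Itgam was at -0.02 after thinning, -0.06 with the replicate block and between -0.11 and 0.24 with 1 library left out. C1qb was at 0.00, 0.02 and between -0.11 and 0.03 in the same settings. With 1 library left out, Csf1r ran from 0.00 to 0.08 and C1qc from -0.02 to 0.21. Of the 9, the number at an unadjusted p under 0.05 was 0, rose to 1 (Cx3cr1) in libraries with Xist, and was 0 to 2 with 1 library left out, the 2 being Cx3cr1 and Aif1 without DJ-1+/+ replicate 4. Over all genes, 36 passed at the adjusted p with no filter on low counts (12 of them on the lists of choroid plexus, cerebellar, dopaminergic and red blood cell markers), 3 in libraries with Xist, 8 with the replicate block (Gabra6 and Hba-a2 among them) and 1 to 2 with 1 library left out. At the unadjusted p, 513 of 18127 genes passed in the fit reported here and 235 with DESeq2. With no filter 802 passed, out of the 26602 genes with a count. With 1 library left out 338 to 732 passed, lowest without DJ-1-/- replicate 2. The causes were not tested. For same-numbered mice, the deviations of each gene from its genotype mean correlated at 0.29, 0.06, -0.12 and -0.20 (replicates 1 to 4). Only for replicate 1 was the best partner the mouse of the same number. The numbers were not taken as pairs, and the replicate block changed no call among the 9 genes. The 95% intervals of the 9 genes still allow folds of up to 1.72, the upper bound for Aif1.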
